A study of Mus musculus with 6 samples.

Results

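Rab proteins are small GTPases that mark the membranes of the cell, and the genes described here are the 59 of the 18121 genes in the table whose symbol is *Rab* followed by a number and, where present, a letter. They were taken by symbol, with no threshold on expression, but the family was chosen with earlier results of these data known. RNA was measured in bone marrow cells of C57BL/6 mice aged 8 weeks, depleted of cells with lineage markers and then selected for CD117, the receptor KIT (Lin-CD117+ cells, called hematopoietic stem cells in the labels). The Ctrl group was 3 libraries of cells in normal culture, and the GA group was 3 libraries of cells kept for 24 h with glycyrrhizic acid, a triterpenoid glycoside of liquorice root. The labels give no culture time for the Ctrl cells, so whether the groups were matched in time is not known. The mice carried no stated genetic change, the GA concentration of this experiment is not given in the sources used here, and a magnetic selection of this kind holds many progenitor types beside stem cells. Whether a replicate was its own animal or culture is not stated, so the p-values describe only how far these libraries spread, and that spread could be technical in origin.

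A Rab protein works as a switch. Exchange factors load it with GTP, the GTP form recruits effectors that move, tether or fuse a vesicle, and GTPase activating proteins switch it off. A lipid tail, added by Rab geranylgeranyl transferase, holds it in the membrane, and GDP dissociation inhibitors lift it out again. In blood cells Rab27a and Rab27b bring secretory granules to the plasma membrane, and the related proteins Rab32 and Rab38 deliver cargo to lysosome-related organelles such as melanosomes and platelet dense granules. Loss of Rab27a gives the pale coat and the lytic granule defect of the ashen mouse, and a *Rab38* mutation the coat of the chocolate mouse.

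The unit is FPKM, fragments per kilobase of transcript per 1000000 mapped fragments, so levels of different genes are already per length. The values sum to between 508672 and 511802 in the Ctrl libraries and to between 515444 and 555449 in the GA libraries, with GA replicate 1 the highest. That library also stood apart on the first principal component (14.97, against -5.82 to 0.25 in the other libraries), and over all genes its values ran lower with transcript length (Spearman rho -0.59 against the Ctrl mean, -0.31 and -0.18 in GA replicates 2 and 3). Steps between low values place every library at roughly 19000000 to 19750000 fragments, so the tested Rab genes rest on about 67.3 to 10908 fragments per library. *Kit* was present in all libraries, with 17.05 to 19.57 FPKM in Ctrl cells and 16.04 to 21.20 FPKM in GA cells. All 18 megakaryocyte and platelet markers listed passed the filter on low values, and their summed level was 23093 to 23798 FPKM in Ctrl and 20860 to 28272 FPKM in GA. Of these markers, 15 had a negative log2 fold change (11 at an unadjusted limma p under 0.05), where 45.2% of all tested genes had a negative one and 4.63% were lower at that p. The 10 neutrophil markers all had a positive one (7 at an unadjusted p under 0.05, summed level 1660 to 1878 FPKM in Ctrl and 2046 to 2165 FPKM in GA), and so did 4 of the 6 tested mast cell and basophil markers (3 at an unadjusted p under 0.05, 163 to 174 and 175 to 195 FPKM), where 54.8% of all tested genes had a positive one and 8.88% were higher at that p. The neutrophil and mast cell markers have short transcripts (median 950 and 1165 bases, against 2811 for all tested genes and 3074 for the megakaryocyte markers). The megakaryocyte markers above 0 were the short *Pf4*, *Ppbp* and *Gp9* (588, 1083 and 881 bases). Those below 0 included the long *Thbs1*, *F5* and *Vwf* (5848, 7430 and 8834 bases). They also included the short *Tubb1*, *Treml1*, *Gp1bb* and *Clec1b* (1406, 1097, 1585.5 and 614 bases). The log2 fold changes of *Gp9*, *Gp1bb* and *Clec1b* were 0.00016, -0.013 and -0.0056. *Pf4*, with means of 13331 FPKM in Ctrl and 14265 FPKM in GA, was the largest part of the megakaryocyte sum. The part of length in the values of these 3 marker lists was not tested. Of the tested stem and progenitor markers 6 of 9 were above 0, of the monocyte and macrophage markers 3 of 8, of the erythroid markers 2 of 6 and of the lymphoid markers 2 of 3. Neutrophils, mast cells and megakaryocytes all use granule Rab proteins, and the part of such markers in the Rab values was not tested. In bulk RNA, fewer cells of a type and less RNA per cell cannot be told apart. The melanocyte markers, of a cell type that uses Rab27a, Rab32 and Rab38, summed to 0.36 to 0.62 FPKM in every library, and *Dct* was listed at 0 in 5 of the 6.

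Rab transcripts were abundant in these cells. Of the 59 genes, 44 reached a mean of 1 FPKM across the 6 libraries and were tested. Their median level was 31.1 FPKM, against 12.7 FPKM for all 10912 tested genes. 16 Rab genes lay over 50 FPKM and 4 over 100 FPKM, namely *Rab7* of late endosomes, *Rab27b* of secretory granules, *Rab5c* of early endosomes and *Rab1b* of the early secretory pathway. *Rab27b* stood above 95.5% of all tested genes. The 15 genes below the filter had means of 0.0133 FPKM (*Rab3c*) to 0.802 FPKM (*Rab36*). Only *Rab3b* and *Rab3c*, which act at synaptic and endocrine vesicles, had a library listed at 0. In the exocytosis group the blood forms *Rab27b*, *Rab37*, *Rab27a* and *Rab44* were thus the abundant ones, and the neuronal *Rab3* forms were low or near 0, with the broader *Rab3d* at 9.59 FPKM. The epithelial forms *Rab17* and *Rab25* had means of 0.715 and 0.315 FPKM.

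**Figure D1:**
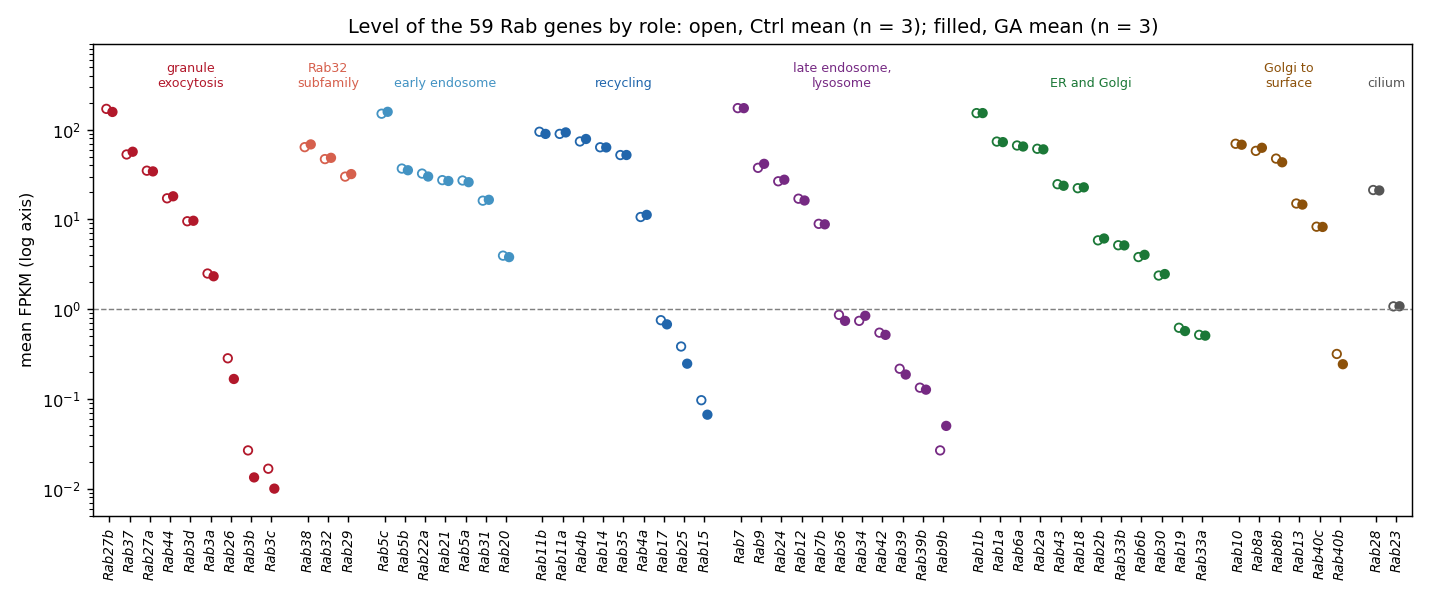
Mean FPKM (log axis) of the 59 Rab genes, ordered by level within each role group, with the Ctrl mean as an open point and the GA mean as a filled point (3 libraries each). The dashed line is the minimum mean of 1 FPKM for testing, and 44 genes lie above it. Open and filled points nearly coincide for the tested genes.

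The first comparison asked whether the Rab transcripts differed between the cells kept for 24 h with GA and the Ctrl cells. Summed over the 59 genes, the level was 2014.93 ± 9.26 FPKM for Ctrl and 2018.06 ± 56.5 FPKM for GA (SD, n = 3 each). These are sums of FPKM as deposited, and the total over all genes was higher in every GA library. With library sums rescaled to 1000000, the median log2 fold change was -0.062 for the Rab genes and -0.043 for all tested genes. None of the 44 tested genes passed limma at an adjusted p of 0.05, as none of the 10912 genes did (percent called 0 of all genes, smallest adjusted p 0.135). Without GA replicate 1, 54 genes were called higher and 60 lower over the whole table, none of them a Rab gene. The smallest adjusted limma p of a Rab gene was 0.270, for *Rab8b*. Without adjustment, 3 Rab genes were under 0.05, *Rab8a* and *Rab38* higher in GA and *Rab8b* lower. That is 6.82% of the tested Rab genes, where 13.5% of all tested genes were called by the same rule (8.88% higher and 4.63% lower). In 11 Rab genes (25%) the Ctrl and GA values did not overlap, 6 higher and 5 lower, beside 19.9% of all tested genes (11.6% higher and 8.29% lower). Without GA replicate 1, a count added after the data were seen, the values of 17 Rab genes did not overlap (9 higher and 8 lower, 38.6%), beside 38.9% of all tested genes, and 2 Rab genes were higher and 4 lower at an unadjusted p under 0.05 (15.0% and 6.05% of all tested genes, 21.1% in all).

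The log2 fold changes of the 44 genes, GA minus Ctrl on the log2(FPKM + 1) scale, ran from -0.13 to 0.13. 19 were above 0 and 25 below, with a median of -0.0038. Over all tested genes 54.8% were above 0 and 45.2% below, and the median was 0.01. With each library rescaled to a sum of 1000000 the Rab split became 11 above and 33 below. The median size of the change, whatever its sign, was 0.052 for Rab genes and 0.065 for all tested genes. The limma 95% intervals describe each gene alone, under the deposited scaling and on this log2 scale. As the spread between libraries could be technical, they set no bound on an effect across animals or cultures. Those of 37 Rab genes lay wholly within 0.25 of 0, and 3 left out 0. *Rab23*, with a mean of 1.075 FPKM, is among the 37, and this scale understates changes of such low genes. The widest interval reached from -0.24 to 0.39, for *Rab6b*, and the lowest bound of any Rab gene was -0.33, for *Rab7b*, both genes under 10 FPKM.

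**Figure D2:**
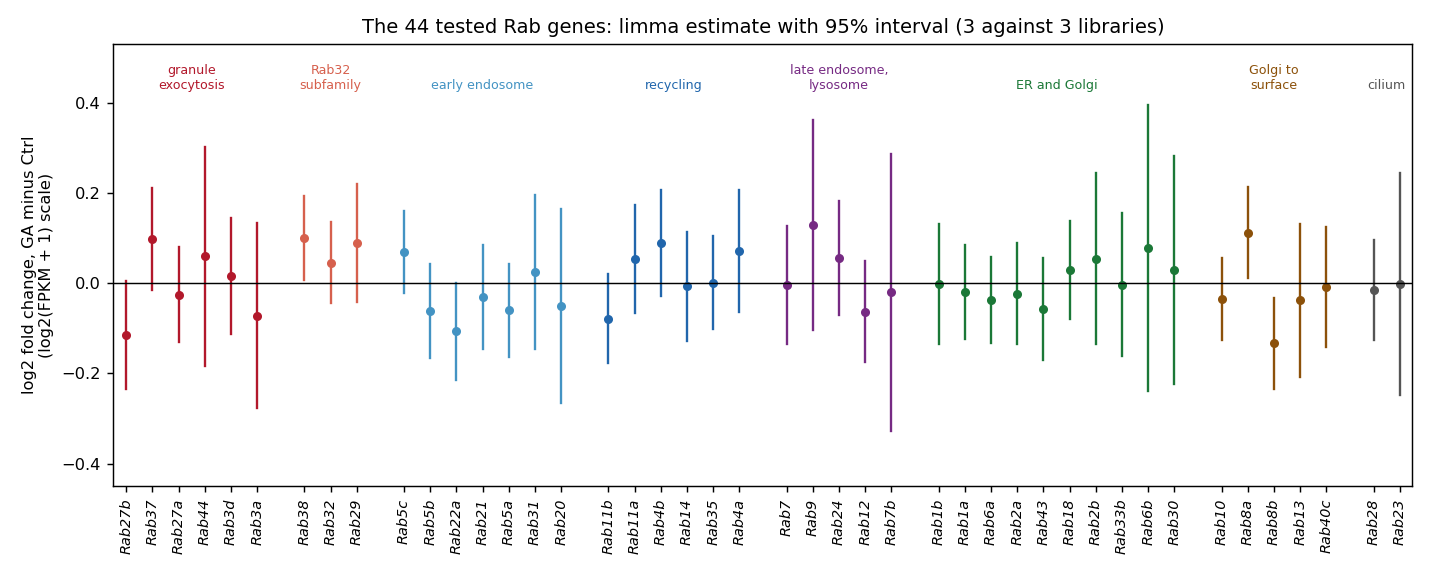
Log2 fold change (GA minus Ctrl, log2(FPKM + 1) scale) of the 44 tested Rab genes by role group, with the limma estimate as a point and its 95% interval as a line (3 against 3 libraries). Estimates lie between -0.13 and 0.13, and only the intervals of *Rab8a*, *Rab8b* and *Rab38* leave out 0.

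The 4 platelet granule genes did not move as one. *Rab27b* was lower and *Rab38* and *Rab32* were slightly higher in GA, while *Rab27a* showed no separation, and none of the 4 passed the adjusted test. *Rab27b*, the main Rab27 form of platelets and mast cells, read 163.12, 174.67 and 173.20 FPKM in Ctrl and 166.84, 156.74 and 148.61 FPKM in GA. GA replicate 1 lay above the lowest Ctrl library, and GA replicates 2 and 3 lay below all Ctrl libraries. The means were 170.3 ± 6.29 and 157.4 ± 9.13 FPKM (SD, n = 3 each), a log2 fold change of -0.11 (SE 0.053, limma adjusted p = 0.394). Without GA replicate 1 the log2 fold change of *Rab27b* was -0.16 (limma adjusted p = 0.096), and with the length trend of each library removed as well it was -0.19 (adjusted p = 0.090). Over all 18 alternatives the adjusted p of *Rab27b* ran from 0.090 to 0.752. Counting error at about 9023 fragments is 1.05%, well under the spread between libraries.

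*Rab27a* (mm10 chr9:73044854-73097629, plus strand) encodes the form that docks lytic granules in T cells and melanosomes in pigment cells. It read 34.72, 35.63 and 34.28 FPKM in Ctrl and 32.76, 34.67 and 35.32 FPKM in GA. The groups overlapped, with GA replicate 1 the lowest of the 6 and GA replicate 3 the second highest. The log2 fold change was -0.026 (SE 0.047, limma adjusted p = 0.872). It changed sign without GA replicate 1, to 0.0049. *Rab27b* transcripts were 4.88 ± 0.178 times those of *Rab27a* in Ctrl and 4.61 ± 0.449 times in GA (SD, n = 3 each). The predicted gene *Gm27186* overlaps *Rab27a* on the same strand.

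*Rab38* (chr7:88430273-88491572, plus strand) and *Rab32* (chr10:10545002-10558265, minus strand) encode close relatives that share the exchange factor BLOC-3. *Rab38* read 63.55, 62.73 and 65.12 FPKM in Ctrl and 68.49, 66.87 and 69.98 FPKM in GA. Every GA library was above every Ctrl library. The means were 63.8 ± 1.21 and 68.4 ± 1.56 FPKM (SD, n = 3 each), with a log2 fold change of 0.10 (SE 0.042, limma adjusted p = 0.345). The exact permutation p was 0.1, two-sided, the smallest that 3 against 3 libraries allow. The log2 fold change of *Rab38* was 0.041 with the length trend removed and 0.042 with library sums rescaled.

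*Rab32* read 46.97, 47.07 and 46.85 FPKM in Ctrl and 47.87, 48.97 and 48.68 FPKM in GA. The Ctrl values were nearly equal and the GA values all lay above them, by a small margin. The log2 fold change was 0.046 (SE 0.040, limma adjusted p = 0.683), and it became -0.012 when library sums were rescaled to 1000000. *Rab29*, the third relative, which acts at the trans-Golgi and lysosomes, had a log2 fold change of 0.090 (SE 0.058, limma adjusted p = 0.554), with overlapping groups. Its transcript is short (1226 bases), and the value of *Rab29* was 0.036 without GA replicate 1, 0.0047 with the length trend removed and -0.035 with both. The sum of *Rab32*, *Rab38* and *Rab29* was 140.7 ± 1.09 FPKM for Ctrl and 148.9 ± 1.96 FPKM for GA (SD, n = 3 each), and these sums of deposited FPKM did not overlap. The sums were not divided by the library totals, which were higher in every GA library, so the separation depends on the scaling. With library sums rescaled to 1000000 the log2 fold changes of *Rab32*, *Rab38* and *Rab29* were -0.012, 0.042 and 0.033.

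**Figure D3:**
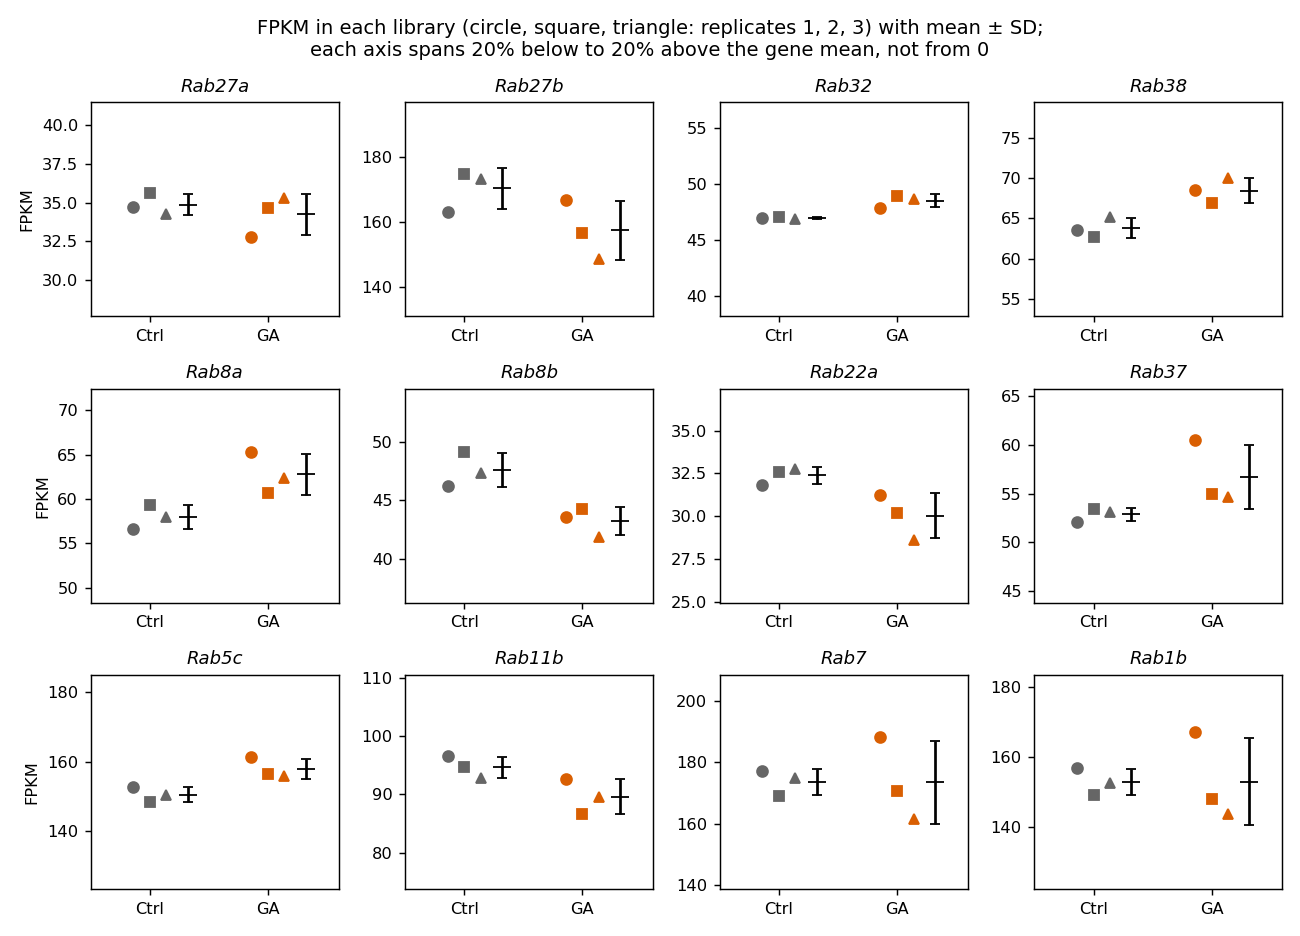
FPKM of 12 Rab genes in each library (replicates 1, 2 and 3 as circle, square and triangle), with the mean and SD of each group of 3 in black. Axes span 20% either side of the gene mean and do not start at 0. *Rab38*, *Rab32*, *Rab8a*, *Rab37* and *Rab5c* have all GA points above the Ctrl points, *Rab8b*, *Rab22a* and *Rab11b* have them all below, and in *Rab7* and *Rab1b* GA replicate 1 is the highest point.

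The 4 platelet granule genes were set beside the other Rab genes by their counts. They had 2 log2 fold changes above 0 and 2 below, with a median of 0.0098 (0.030 without GA replicate 1, -0.048 with library sums rescaled), and the 40 other tested genes had 17 above and 23 below, with a median of -0.0038. In the 4 genes 2 did not overlap between groups, both higher, and in the 40 others 4 were higher and 5 lower, beside 11.6% of all tested genes higher and 8.29% lower. The summed level of the 4 was 315.97 ± 6.60 FPKM for Ctrl and 308.6 ± 6.79 FPKM for GA (SD, n = 3 each), and these sums of deposited FPKM overlapped. The sums were not divided by the library totals, which were higher in every GA library. The 4 genes made up 15.5% of the Rab sum. No test was made of the difference between the lists.

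In the rest of the exocytosis group, *Rab37*, which acts in the release of mast cell granules, read 52.10, 53.43 and 53.10 FPKM in Ctrl and 60.53, 54.97 and 54.60 FPKM in GA. All GA values were above the Ctrl values, and GA replicate 1 was the farthest. The log2 fold change was 0.097 (SE 0.050, limma adjusted p = 0.436), and 0.050 without GA replicate 1. *Rab44*, a large Rab protein of mast cell granules, read 17.95, 15.74 and 17.82 FPKM in Ctrl and 14.75, 18.56 and 20.93 FPKM in GA, so that GA replicate 1 was the lowest and replicate 3 the highest of all 6. Its log2 fold change was 0.059 (SE 0.108), and 0.19 without GA replicate 1. Of the 6 tested members of the group, 3 were above 0 and 3 below.

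Among the 7 early endosome genes, 5 had negative log2 fold changes and 2 positive. *Rab5c*, one of 3 Rab5 forms that drive fusion of early endosomes, read 152.58, 148.29 and 150.39 FPKM in Ctrl and 161.35, 156.51 and 155.95 FPKM in GA. The GA values were all higher, by a margin that did not pass the test (log2 fold change 0.070, SE 0.041, limma adjusted p = 0.495). It was 0.030 with the length trend removed, 0.011 with library sums rescaled and 0.0029 with the length trend removed and without GA replicate 1. The other Rab5 forms were on the other side of 0, with log2 fold changes of -0.060 for *Rab5a*, whose groups did not overlap, and -0.061 for *Rab5b*, whose groups did. *Rab22a*, which acts between early and recycling endosomes, read 31.83, 32.60 and 32.73 FPKM in Ctrl and 31.25, 30.17 and 28.64 FPKM in GA. All GA values were lower, with a log2 fold change of -0.11 (SE 0.048, limma adjusted p = 0.376), or -0.049 with the length trend removed. *Rab22a* has a transcript of 7155 bases, among the longest in the family, and a microRNA gene (*Mir6340*) lies on the opposite strand. *Rab5a* overlaps *Pp2d1* on the opposite strand. Whether counting used strand is not given in the sources used here.

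Of the 6 tested recycling genes 4 were above 0 and 2 below. *Rab11b*, a form of the recycling endosome, read 96.54, 94.68 and 92.86 FPKM in Ctrl and 92.74, 86.60 and 89.55 FPKM in GA. All GA values were lower, though GA replicate 1 and Ctrl replicate 3 nearly met, with a log2 fold change of -0.079 (SE 0.044, limma adjusted p = 0.470) that was -0.029 with the length trend removed. Its close relative *Rab11a* was at 0.053 (SE 0.053, adjusted p = 0.733 by limma). *Rab4b*, of the fast recycling route, had higher values in every GA library (72.23 to 75.50 FPKM in Ctrl, 75.54 to 84.46 FPKM in GA), with a log2 fold change of 0.089 that was 0.0011 with the length trend removed. *Rab11b* shares its locus with a predicted gene on the opposite strand, *Gm17251*. On the same strand, *Rab4b* overlaps *Gm21983* and *Mir3101*, and *Rab11a* overlaps *Gm47308*.

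Of the 5 tested late endosome genes 2 were above 0 and 3 below. *Rab7*, which directs late endosomes to lysosomes and had the highest Rab level, read 177.24, 169.04 and 174.89 FPKM in Ctrl and 188.25, 170.53 and 161.71 FPKM in GA. GA held both the highest and the lowest of the 6 values, and the log2 fold change was -0.0044 (SE 0.058, limma adjusted p = 0.986). The gene *Gm5577* overlaps *Rab7* on the opposite strand. *Rab9*, of transport from late endosomes to the Golgi, was picked after its values were seen because one library set its mean. It read 38.18, 37.03 and 37.36 FPKM in Ctrl and 50.64, 37.41 and 36.68 FPKM in GA, a log2 fold change of 0.13 that was -0.018 without GA replicate 1.

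Of the 10 tested genes of the endoplasmic reticulum and Golgi 4 were above 0 and 6 below, and none had groups that did not overlap. *Rab1b*, of transport from the endoplasmic reticulum to the Golgi, read 156.71, 149.11 and 152.49 FPKM in Ctrl and 167.08, 147.94 and 143.59 FPKM in GA. As in *Rab7*, the GA libraries held the highest and lowest values (log2 fold change -0.0019, SE 0.059, limma adjusted p = 0.996). The values of *Rab2a*, *Rab6a* and *Rab18* in this group had log2 fold changes of -0.023, -0.038 and 0.030. The cilium genes *Rab28* and *Rab23* were at -0.015 and -0.0018.

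The clearest contrast within the family was between *Rab8a* and *Rab8b*, paralogs that carry vesicles from the Golgi and recycling endosomes to the plasma membrane. *Rab8a* (chr8:72161200-72183904, plus strand) was higher and *Rab8b* (chr9:66843664-66919687, minus strand) lower in all GA libraries. The 250 bases before the start of each, from RefSeq on GRCm38.p6, are shown because the paralogs had opposite signs. Both strands were searched for short letters that blood and housekeeping factors bind, and capitals mark each match. The letters for GATA factors were AGATAA. Those for E-box factors of the MiT family were CACGTG. ETS factors were searched as CCGGAAG, RUNX factors as TGTGGT and SP1 as GGGCGG.
*Rab8a*, chr8:72160950-72161199, plus strand: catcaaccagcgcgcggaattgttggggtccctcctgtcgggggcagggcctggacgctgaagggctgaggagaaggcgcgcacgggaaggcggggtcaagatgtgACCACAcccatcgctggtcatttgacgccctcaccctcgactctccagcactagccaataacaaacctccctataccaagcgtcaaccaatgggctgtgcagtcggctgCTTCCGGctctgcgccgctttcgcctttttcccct
*Rab8b*, chr9:66919706-66919955, minus strand: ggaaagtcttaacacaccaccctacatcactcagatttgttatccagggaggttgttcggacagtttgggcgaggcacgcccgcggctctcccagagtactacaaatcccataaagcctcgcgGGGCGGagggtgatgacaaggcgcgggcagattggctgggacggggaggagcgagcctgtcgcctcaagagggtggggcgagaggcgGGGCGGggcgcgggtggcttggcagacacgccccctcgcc

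In the *Rab8a* window the RUNX letters (as ACCACA) begin 144 bases and the ETS letters (as CTTCCGG) 35 bases before the start. In the *Rab8b* window GGGCGG begins 127 and 40 bases before the start, so the windows have no matched letters in common. Over all 32851 promoter windows of this length, 14.0% held the RUNX letters, 6.91% the ETS letters and 32.7% the SP1 letters. For the 48 Rab genes with an entry (60 windows) the shares were 15.0%, 5.0% and 66.7%. AGATAA was in 3.33% of Rab windows and 9.99% of all and the E-box letters in 8.33% and 6.02%. None of these letters overlap another motif in the windows shown. A match is a description of the letters only.

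*Rab8a* read 56.65, 59.33 and 57.97 FPKM in Ctrl and 65.30, 60.69 and 62.32 FPKM in GA. The log2 fold change was 0.11 (SE 0.045, limma adjusted p = 0.331). *Rab8b* read 46.25, 49.10 and 47.32 FPKM in Ctrl and 43.60, 44.27 and 41.91 FPKM in GA. All GA values lay below the Ctrl values, with a log2 fold change of -0.13 (SE 0.045, limma adjusted p = 0.270). Their transcripts are nearly equal in length, 4550 and 4733 bases, and neither gene changed sign in any of the 18 alternatives tried. Most of these could not have changed it. With groups that do not overlap, leaving out a library keeps the sign. So does a change of pseudocount, filter, variance trend or replicate block. Only the settings on scaling and length could reverse it. The log2 fold changes of *Rab8a* and *Rab8b* were 0.14 and -0.10 with the length trend removed, and 0.055 and -0.19 with library sums rescaled. Of the 3 other tested genes of this group, *Rab10*, *Rab13* and *Rab40c*, all had log2 fold changes below 0, the lowest at -0.038.

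The ratio of 2 genes within a library does not depend on how the library was scaled, and it was taken for 9 pairs of related Rab genes, a comparison chosen after the values were seen. *Rab8b* over *Rab8a* was 0.816, 0.828 and 0.816 in Ctrl and 0.668, 0.729 and 0.672 in GA. The mean ratio went from 0.820 ± 0.0065 to 0.690 ± 0.034 (SD, n = 3 each), a change of -15.9%, and the libraries did not overlap. *Rab11b* over *Rab11a* was 1.13, 1.03 and 1.02 in Ctrl and 0.935, 0.947 and 1.01 in GA, also without overlap (-8.86%). These transcripts differ in length (6109 and 2336 bases), and with the length trend removed the log2 fold changes of *Rab11b* and *Rab11a* were -0.029 and 0.029, against -0.079 and 0.053 before. The exact permutation p was 0.1 for both, the smallest possible, and 0.45 after Benjamini-Hochberg adjustment over the 9 pairs. For *Rab8b* over *Rab8a* this result was fixed by the values of the single genes, which separated in opposite directions. That ratio therefore adds no support of its own. The other 7 ratios overlapped between groups, among them *Rab27b* over *Rab27a* (-5.68%) and *Rab38* over *Rab32* (3.88%).

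**Figure D4:**
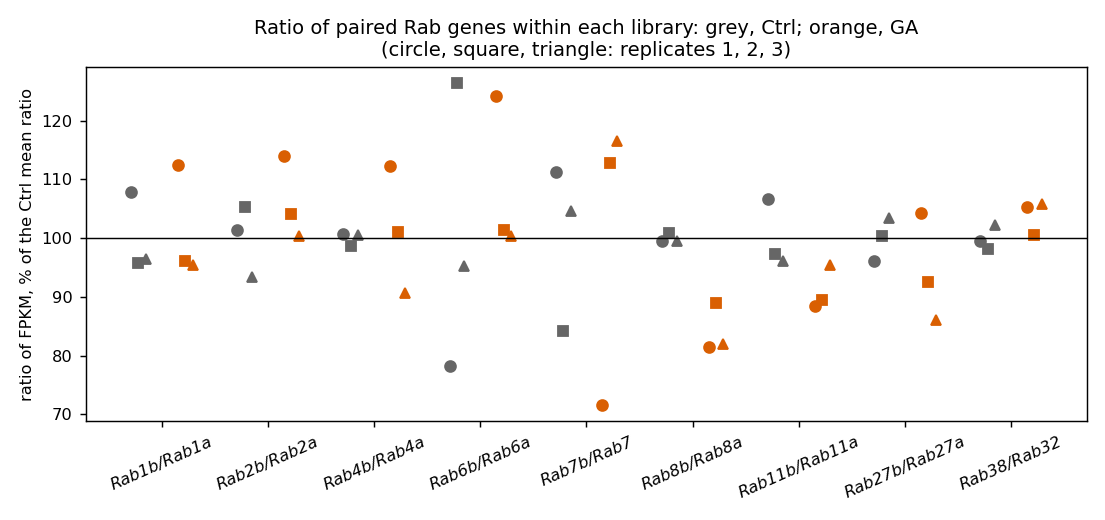
Ratio of FPKM of 9 pairs of related Rab genes within each library, as percent of the Ctrl mean ratio of that pair, with Ctrl libraries in grey and GA libraries in orange (replicates 1, 2 and 3 as circle, square and triangle). Only *Rab8b* over *Rab8a* and *Rab11b* over *Rab11a* have all GA points below the Ctrl points, with mean changes of -15.9% and -8.86%.

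The genes that load, lipidate and answer to Rab proteins were also without an adjusted call (percent called 0 in each list as in all genes), and the counts below are of log2 fold changes above and below 0. Of the 8 genes of Rab prenylation and recycling 6 were above 0, and *Rabif*, a Rab chaperone, had the smallest p (log2 fold change 0.10, limma adjusted p = 0.427). Their median was 0.039, against 0.01 over all tested genes. *Rabac1*, a Rab acceptor of the Golgi, was at 0.11 but at -0.0054 with the length trend removed. Of the Rab27 effectors only 4 of 12 were expressed enough to test, 1 above and 3 below 0. *Unc13d* (Munc13-4), which primes granules for fusion, averaged 85.8 ± 1.62 FPKM over the Ctrl and 83.2 ± 2.14 FPKM over the GA libraries (SD, n = 3 each), and *Sytl4* (granuphilin) 17.0 and 16.4 FPKM. The melanosome effector *Mlph* (0.21 and 0.23 FPKM) was under the filter. No gene of these lists was at an unadjusted limma p under 0.05, beside 13.5% of all tested genes.

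Of the 20 tested exchange factors for granule and endosome Rab proteins 6 were above 0 and 14 below. *Dennd4a*, an exchange factor for Rab10, had the smallest p (log2 fold change -0.12, limma adjusted p = 0.363), with lower values in every GA library. *Hps1* and *Hps4*, the subunits of BLOC-3 that load Rab32 and Rab38, were at 0.060 and -0.014. Of the 28 tested GTPase activating proteins 8 were above 0 and 20 below, and of the 15 tested endosome effectors 6 were above and 9 below. No gene of these 2 lists was at an unadjusted limma p under 0.05, and *Dennd4a* was the only exchange factor that was, beside 13.5% of all tested genes. Over all tested genes 45.2% were below 0. The 3 lists have long transcripts, with medians of 4029, 3933 and 5077 bases against 2811 for all tested genes, and the part of length in these counts was not tested.

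Of the 28 genes of lysosome-related organelle biogenesis 17 were above 0 and 11 below. At an unadjusted limma p under 0.05 were *Dtnbp1* (dysbindin, a BLOC-1 subunit) on the higher side, and on the lower side *Lyst* and *Nbeal2*, large BEACH proteins whose loss gives giant granules and platelets without alpha granules. *Nbeal2* is also one of the megakaryocyte and platelet markers counted above. *Nbeal2* averaged 42.9 ± 0.860 FPKM over the Ctrl and 39.0 ± 2.93 FPKM over the GA libraries, and *Lyst* 12.4 ± 0.981 and 10.8 ± 0.477 FPKM (SD, n = 3 each). These 3 of 28 genes stand beside 13.5% of all tested genes at that p. Transcripts of *Lyst* (13181 bases) and *Nbeal2* (8803 bases) are long and that of *Dtnbp1* (1362 bases) is short.

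Of the 19 genes of the platelet SNARE machinery 9 were above 0 and 10 below. *Stx11*, the syntaxin that platelets and cytotoxic cells need for secretion, read 76.01, 74.63 and 73.92 FPKM in Ctrl and 70.01, 67.03 and 65.55 FPKM in GA. All GA values were lower, with a log2 fold change of -0.15 (SE 0.043, limma adjusted p = 0.240), the smallest p among the partners of Rab proteins listed here. *Vamp2*, a vesicle SNARE, had a log2 fold change of -0.13 (SE 0.053, adjusted p = 0.335) and *Stx8*, an endosomal syntaxin, 0.20 (SE 0.072, adjusted p = 0.289, both by limma), with overlapping values in *Stx8*.

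Transcript length went with the Rab values in GA replicate 1. Over the 44 tested Rab genes, with lengths of 1168 to 9456 bases, the Spearman correlation between length and the deviation from the Ctrl mean was -0.36 in that library, -0.06 in GA replicate 2 and -0.10 in GA replicate 3. These are descriptions over genes that share a library. Of the 22 shorter genes 10 had a log2 fold change above 0, and of the 22 longer genes 9. GA replicate 1 held the highest of the 6 values in 11 Rab genes and the lowest in 11 others, GA replicate 3 the highest in 8 and the lowest in 14, and GA replicate 2 the highest in 5 and the lowest in 3. The SD of the log2 deviations over Rab genes was 0.14, 0.076 and 0.11 in GA replicates 1, 2 and 3 and 0.044 to 0.072 in the Ctrl libraries, which are part of the mean they are set against and so deviate less by construction.

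**Figure D5:**
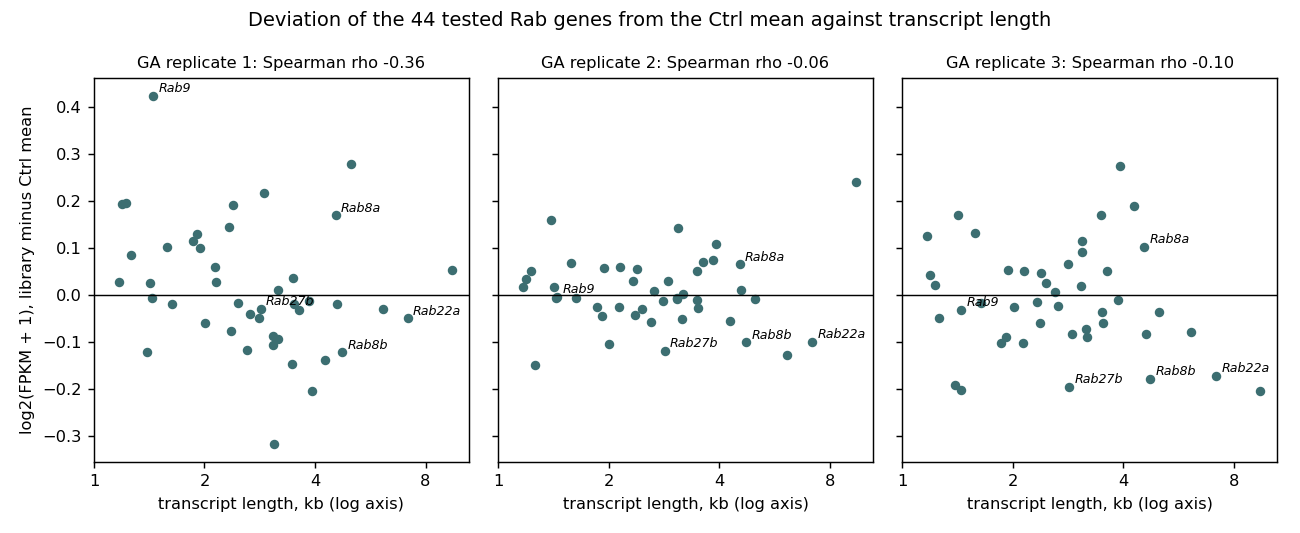
Deviation of each of the 44 tested Rab genes from its Ctrl mean (log2(FPKM + 1)) in GA replicates 1, 2 and 3, against transcript length in kilobases (log axis), 1 point per gene. Spearman rho is -0.36, -0.06 and -0.10, and *Rab9* stands far above 0 in GA replicate 1 only.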

How the data were processed

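RNA for 3 Ctrl and 3 GA libraries was taken with TRIzol and sequenced by DNBSEQ on a BGISEQ-500 instrument. Per the submitters' processing notes and the study's methods, the authors cleaned the reads, used HISAT2 2.0.4, Bowtie2 2.2.5, the mm10 genome and RSEM, and deposited FPKM values with 2 decimals. Annotation, strand setting and read length are not given in the sources used here. Since FPKM is per length and per total, degraded RNA or shorter fragments in one library can shift genes by length, and an abundant gene can shift all others. Whole reads could not be recovered: among the 136 to 163 low values examined in a library, 62.0% to 69.3% came within 0.15 of whole fragments, where chance gives 30%, so no count test was run. Depth is therefore approximate, and counting errors cover counting only.

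Libraries were grouped by title, and 0 value columns were left without a sample. limma 3.58.1 in R 4.3.3 was fitted (two-sided, variance trend on the mean) to log2(FPKM + 1) of the 10912 genes that reached a mean of 1 FPKM, and p-values were adjusted over all of them (Benjamini-Hochberg, threshold 0.05). Fold changes on this scale understate low genes. The fit was tested on simulated data. Exact permutation tests covered 20 arrangements. Alternatives changed the pseudocount, the filter, the scaling, the variance trend, the replicate block, the length trend (loess) and each library in turn.

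Genes given library by library are the 4 platelet granule genes, the 6 Rab genes of smallest p and the 5 of highest mean, and beside these *Rab44*, *Rab9* and *Stx11*, chosen after their values were seen. Partner lists are given by counts and up to 3 genes of smallest p, and other genes named were chosen after their values were seen. The members, roles, partner and marker lists were chosen with earlier results of these data known. Locations and transcript lengths are from GENCODE M21 and promoters from RefSeq, both GRCm38. For 11 Rab genes, *Rab27b*, *Rab38* and *Rab37* among them, no promoter was used here. The listed symbols *Zfyve20*, *Varp* and *Cd3e* were not analysed here. *Zfyve20* and *Varp* are other names of *Rbsn* and *Ankrd27*, which were tested.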

Additional observations from a re-analysis of the deposited data

How the results depend on the processing

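No Rab gene passed the adjusted threshold in any of the 18 alternatives, and 16 of the 44 kept 1 sign in all of them. Of 593 values under the alternatives for 12 Rab genes and 21 partner genes, 578 kept their direction and 15 reversed. Other Rab genes named above were not in this count. Among them *Rab9*, *Rab29*, *Rab4b*, *Rab44*, *Rab11a* and *Rab23* each changed sign in at least 1 alternative.

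Over all genes, rescaling library sums to 1000000 called 3 lower and leaving out GA replicate 1 called 54 higher and 60 lower, where leaving out any other library called 0. With the length trend also removed these were 12 and 104. The number of Rab genes at an unadjusted p under 0.05, 2 higher and 1 lower in the report, became 3 lower with no filter on low values, and 0 higher and 4 lower when rescaled to 1000000. It became 0 higher with median of ratios scaling, TMM type scaling, no variance trend or the replicate block, and 1 higher and 0 lower with the length trend removed. It became 0 and 0 with the replicate block and the length trend removed, and 1 and 10 without GA replicate 1 and with the length trend removed. In that last setting 1761 of all 10719 tested genes were at that threshold, 704 of them higher. Leaving out each library gave 0 to 2 higher and 0 to 4 lower. Over all genes, 969 of the 1474 at that threshold were higher, against 788 of 1436 with median of ratios scaling, 734 of 1441 with TMM type scaling and 295 of 1155 when rescaled.

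The median log2 fold change of the Rab genes (-0.0038) was -0.015 with no filter, -0.062 when rescaled, -0.014 with TMM type scaling or the length trend removed, with or without the replicate block, and -0.042 without GA replicate 1 and with the length trend removed. That of the genes other than the platelet granule ones was -0.015 with no filter, -0.062 when rescaled and -0.043 in the last setting. That of the platelet granule genes was -0.048 when rescaled and ran from -0.0024 to 0.030 when each library was left out.

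*Rab32* reversed to -0.012 when rescaled. *Rabac1* reversed to -0.0054 with the length trend removed, with and without the replicate block, and to -0.027 when GA replicate 1 was also left out, where *Tbc1d7*, a GTPase activating protein, was -0.00029 and *Myo5a*, a motor for Rab27 vesicles, 0.034. Leaving out each library in turn gave -0.064 to 0.045 for *Rab7*, -0.067 to 0.041 for *Rab1b*, -0.048 to 0.0049 for *Rab27a* and -0.15 to 0.016 for *Myo5a*. The causes were not tested. Libraries with the same number did not deviate together (correlations -0.17, -0.13 and 0.0039), so the numbers were not taken to pair samples, and the replicate block lowered the genes at an unadjusted p under 0.05 from 1474 to 1177 and moved no adjusted call. Depth limits the rarest tested genes, such as *Rab23*, and says nothing of the 15 untested ones.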
